A study of Caenorhabditis elegans with 2 samples.

Results

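Nuclear hormone receptor genes of the nematode Caenorhabditis elegans were taken as the protein-coding genes of the Ensembl WBcel235 annotation whose name is nhr- followed by a number. The rule found 269 such genes among the 19973 protein-coding genes of the nuclear chromosomes, and the RefSeq product of 268 of them names a nuclear receptor or one of its domains. Of the 269 genes, 167 lay on chromosome V and 102 on the other chromosomes. Each was examined for peaks of CEH-18, a POU homeodomain transcription factor, mapped by chromatin immunoprecipitation and sequencing (ChIP-seq).

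The animals were hermaphrodite late embryos of strain OP533, genotype unc-119(tm4063) III; wgIs533, collected 3 h after synchronisation by egg bleaching. They stably expressed CEH-18 with a C-terminal GFP-FLAG tag from a transgene, and whole embryos were used, so peaks in different tissues cannot be told apart. The sample description states that an anti-GFP antibody was used, while the antibody field reads ceh-18. The labels give 2 biological replicates, which form 1 group with no second condition, and whether they came from separate cultures is not stated further, so their agreement may in part be technical.

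Nuclear hormone receptors are transcription factors with a zinc finger DNA-binding domain and a domain that can bind small lipophilic ligands such as steroids and fatty acids. The family is greatly expanded in nematodes, mostly through duplication of genes related to HNF4, and many of the copies lie in clusters on chromosome V. A smaller set has clear counterparts in insects and vertebrates and acts in moulting, epidermal development, dauer formation and fat metabolism.

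The peaks came from 2 lists on the ce11 build: 2575 peaks that passed the authors' threshold for reproducibility (irreproducible discovery rate, IDR), and 28466 peaks of the pooled replicates that served as input to that step and include background. Peak height is given as signal, a value of the authors' peak caller whose scale is not stated. It was 114.2 to 1223 in the thresholded list, with a median of 172, and 23.03 to 1223 in the pooled list, with a median of 38.2. The list of replicate 1 held 30000 peaks and that of replicate 2 held 21337. Read depth is unknown because the lists hold no counts. A gene is called bound here if the summit of a thresholded peak lay between 1000 bp upstream and 200 bp downstream of its 5′ end, its promoter window.

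By this rule 13 of 269 nhr genes were bound, or 4.83% (95% exact binomial interval 2.60 to 8.12%), against 7.2% of all protein-coding genes. The bound members were nhr-1, nhr-3, nhr-32, nhr-35, nhr-48 and nhr-255 on X, nhr-47, nhr-142, nhr-237 and nhr-256 on V, and 3 genes on other autosomes. The share was lower on V and higher on X, each beside its own chromosome's genes. On V, 4 of 167 nhr genes were bound, or 2.4% (0.656 to 6.02%), against 4.37% of all genes on V. On the other chromosomes together the share was 9 of 102, or 8.82% (4.11 to 16.1%), against 8.14% of all genes there. On X it was 6 of 23, or 26.1% (10.2 to 48.4%), against 8.35% of all genes on X. The interval for X lies above the share of all genes there, while those for V and for the other chromosomes together include it. Without summits within 200 bp of tRNA, snoRNA or snRNA genes, 5 of the 23 on X were left, since nhr-255 dropped out. The share of all genes on X was not computed for that setting. With a shorter window, from 500 bp before to 100 bp after the 5′ end, 3 of the 23 genes on X were bound, or 13% (2.78 to 33.6%), against 6.26% of all genes on X, and this interval includes it. Then 8 nhr genes were bound in all, or 2.97%, against 5.5% of all genes, and 2 on V, or 1.2%, against 3.36%. With the 1287 thresholded peaks of highest signal the same 6 genes on X were bound, against 4.58% of all genes on X, and again 8 in all, against 3.78%, with 1 on V, against 2.24%. The intervals cover counting error alone, and genes that neighbour each other or share a promoter are not independent, so no test over genes was made.

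The 4 strongest peaks in nhr promoter windows all lay on X. The peak of nhr-1 had a signal of 509 in the pooled list, 246 in replicate 1 and 262 in replicate 2, and its summit lay 352 bp upstream of the 5′ end. It ranked 59 among the 2575 thresholded peaks, 83 in replicate 1 and 58 in replicate 2. The peak of nhr-48, a receptor related to DAF-12 and to the vertebrate vitamin D and pregnane X receptors, had a signal of 410 in the pooled list, 218 in replicate 1 and 191 in replicate 2, with its summit 585 bp upstream. The peak of nhr-255, at X:15741937-15742161, reached 312 in the pooled list, 163 in replicate 1 and 144 in replicate 2. Its summit lay 582 bp upstream of nhr-255 and 22 bp from a tRNA gene on X, so the peak can be given to either. The peak of nhr-3 reached 277 in the pooled list, 139 in replicate 1 and 142 in replicate 2, with its summit 907 bp upstream. Those of nhr-35 (183, 99.3 and 79.1, in the same order of lists) and nhr-32 (172, 93.8 and 83.5) were near the middle of the thresholded list, with ranks of 1143 and 1281.

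Because these summits are what assigns CEH-18 to the genes, the bases around 7 of them are shown, 75 bp to each side of the summit, from the WBcel235 genome and on the strand of the gene. They are nhr-1 at X:17513636-17513786 (+), nhr-48 at X:15707553-15707703 (+), nhr-32 at X:13251587-13251737 (+), nhr-3 at X:14557522-14557672 (+), nhr-119 at II:2800959-2801109 (-), nhr-256 at V:1743595-1743745 (+) and nhr-142 at V:5790990-5791140 (-). All 7 windows were annotated as intergenic at the summit. Capitals mark the word GAGAGA or its reverse complement TCTCTC, and ATGCA, the start of the octamer ATGCAAAT that POU factors are known to bind, or its reverse complement TGCAT.
nhr-1: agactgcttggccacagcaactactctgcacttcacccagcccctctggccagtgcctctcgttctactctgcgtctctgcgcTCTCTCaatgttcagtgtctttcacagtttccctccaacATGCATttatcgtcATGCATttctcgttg
nhr-48: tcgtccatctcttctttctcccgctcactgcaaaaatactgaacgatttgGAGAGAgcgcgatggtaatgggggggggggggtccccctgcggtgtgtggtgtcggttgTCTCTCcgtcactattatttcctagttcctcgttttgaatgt
nhr-32: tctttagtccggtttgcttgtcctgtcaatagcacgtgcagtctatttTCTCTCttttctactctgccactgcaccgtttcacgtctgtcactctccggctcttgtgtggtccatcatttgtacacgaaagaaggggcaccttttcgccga
nhr-3: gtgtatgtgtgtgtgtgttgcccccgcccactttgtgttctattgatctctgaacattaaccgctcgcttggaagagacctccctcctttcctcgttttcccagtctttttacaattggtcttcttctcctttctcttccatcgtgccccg
nhr-119: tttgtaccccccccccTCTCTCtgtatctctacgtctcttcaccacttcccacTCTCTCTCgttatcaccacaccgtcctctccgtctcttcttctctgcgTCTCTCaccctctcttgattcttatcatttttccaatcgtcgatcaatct
nhr-256: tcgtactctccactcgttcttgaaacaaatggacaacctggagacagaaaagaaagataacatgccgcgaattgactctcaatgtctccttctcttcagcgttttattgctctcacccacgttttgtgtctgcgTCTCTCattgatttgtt
nhr-142: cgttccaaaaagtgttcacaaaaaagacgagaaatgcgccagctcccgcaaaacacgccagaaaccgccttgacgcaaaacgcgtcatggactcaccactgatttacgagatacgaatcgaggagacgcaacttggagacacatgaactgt

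The word GAGAGA, searched on both strands, lay within 75 bp of 8 of the 13 summits, or 61.5%, against 45.2% of all 2575 thresholded summits. The window of nhr-119 held it 4 times, with overlapping copies counted, and that of nhr-48 held it 2 times, in both orientations. The octamer ATGCAAAT was in none of the 13 windows, against 0.854% of all thresholded windows. Its start ATGCA was in 1 of the 13, against 20.8% of all. That window is the one of nhr-1, the gene with the strongest peak, in which 2 copies of the palindrome ATGCAT stand close together, each counted on both strands. The half-site AGGTCA, which many nuclear receptors recognise, was in none of the 13 and in 3.61% of all thresholded windows, and the homeodomain word TAATTA was in none of the 13 and in 1.51% of all. The word CANNTG was in 7 of the 13, or 53.8%, against 51.7% of all. These are matches of letters and not binding sites, and absence says only that the letters are not in the window.

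Over whole promoter windows, GAGAGA was present in 13 of 13 bound nhr genes and in 132 of the 256 nhr genes not bound, or 51.6%, against 68.6% of all bound genes and 50.9% of all protein-coding genes. On V the word was present at 49.1% of nhr genes and at 46.7% of all genes, and on the other chromosomes at 61.8% of nhr genes and at 52.3% of all genes. On X, where 6 of the 13 bound genes lay, it was present at 73.9% of nhr genes. The share of all genes on X was not computed. ATGCAAAT was present at 13.8% of nhr promoter windows on V and 3.92% of those on the other chromosomes, beside 10.7% of all genes on V and 10.4% of all genes elsewhere. Base composition moved with binding. The GC content of the promoter windows had a median of 37.5% at bound and 33.7% at unbound nhr genes, against 37.1% at all bound genes and 35.0% at all protein-coding genes. For nhr genes the median was 36.1% on X and 33.5% on V, so the comparison by binding is mixed with chromosome. The part of GC content or of chromosome in the word counts was not tested.

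The 4 bound genes on V had weaker peaks than the leading ones on X. That of nhr-142 was the strongest, with a signal of 227 in the pooled list, 101 in replicate 1 and 124 in replicate 2. Its summit lay 512 bp upstream of nhr-142 but 165 bp upstream of the neighbouring gene F44E7.9, which is nearer. The peak of nhr-47 at V:5505014-5505497 (163, 96.9 and 66.4 in the pooled, replicate 1 and replicate 2 lists) had its summit 3 bp downstream of the 5′ end, in the untranslated part of an exon, and 399 bp upstream of dnj-19, so it is shared as well. The peak of nhr-256 (134, 65.7 and 70.3) lay 101 bp upstream. The peak of nhr-237 at V:1627155-1627638 (114.2, 56.2 and 61.8), 577 bp upstream, was rank 2575, the weakest peak that the threshold let through.

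The other 3 bound members lay on autosomes I and II. The peak of nhr-49, an HNF4-related receptor that activates genes of fatty acid desaturation and oxidation, lay at I:9869279-9869479 and had a signal of 202 in the pooled list, 108 in replicate 1 and 107 in replicate 2, with its summit 289 bp upstream. The peak of nhr-64, another HNF4-related receptor with a role in fat metabolism, lay at I:3101655-3102138 and had a signal of 162 in the pooled list, 80.4 in replicate 1 and 77.1 in replicate 2, 46 bp downstream of the 5′ end in the untranslated part of an exon. The peak of nhr-119 reached 166 in the pooled list, 85.6 in replicate 1 and 83.5 in replicate 2, and its summits in the replicates were 107 bp apart, the widest gap of the 13.

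**Figure D1:**
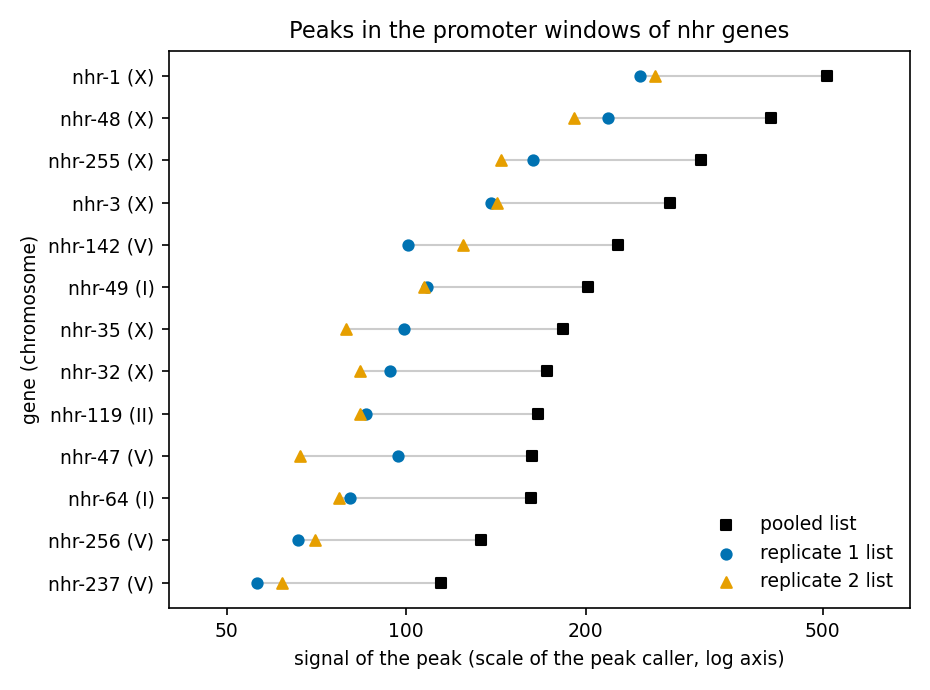
Signal of the peak in the promoter window of each of the 13 bound nhr genes, on a log axis, in the pooled list (squares), the replicate 1 list (circles) and the replicate 2 list (triangles), with the chromosome in brackets and the strongest at the top. The 4 strongest are on X, and the weakest, nhr-237 on V, has a pooled signal of 114.2.

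The peaks of the 13 genes came from the list thresholded by IDR, which held every pooled peak with a signal of at least 114.217. A peak is thus in it by its pooled signal and not by its own agreement between replicates. A high pooled signal still draws on both replicates. Likeness of the replicates is therefore in part built in, and it is only described. The median gap between the summits of replicate 1 and replicate 2 was 14 bp. Of the 13 peaks, 12 were among the 2575 strongest of replicate 1 and 13 among the 2575 strongest of replicate 2, and the exception in replicate 1 was nhr-237 with rank 2724. Their summits lay upstream of the 5′ end in 11 cases and downstream in 2, at a median distance of 379 bp. The median signal of the 13 was 183, against 177 for all bound protein-coding genes, and 8 of the 13 were above the median of the thresholded list. For 8 of the 13, or 61.5%, the next gene upstream was transcribed in the opposite direction, a share near the 65.8% of all bound protein-coding genes.

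Each thresholded summit was next given to the nearest 5′ end within 5000 bp, which reaches distal and intronic summits and gives each to 1 gene. This rule named 28 nhr genes in place of 13, among them every bound gene except nhr-142, and 1926 protein-coding genes in place of 1438. The 28 were 10.4% of the family (7.03 to 14.7%), against 9.64% of all protein-coding genes. On V it named 3 of 167, or 1.8% (0.372 to 5.16%), against 5.43% of all genes on V. On the other chromosomes it named 25 of 102, or 24.5% (16.5 to 34.0%), against 11% of all genes there. On X it named 11 of 23, or 47.8% (26.8 to 69.4%), against 15.1% of all genes on X, and on the 4 autosomes other than V 14 of 79, or 17.7% (10.04 to 27.9%), against 10.1%. Of those 79 genes 3, or 3.8%, were bound in the promoter window, against 8.1%. By the nearest rule the interval for V lies below the share of all genes there and that for X above it. Here too the intervals cover counting error alone. Each summit goes to 1 gene and neighbouring genes are not independent, so this is not a test.

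**Figure D2:**
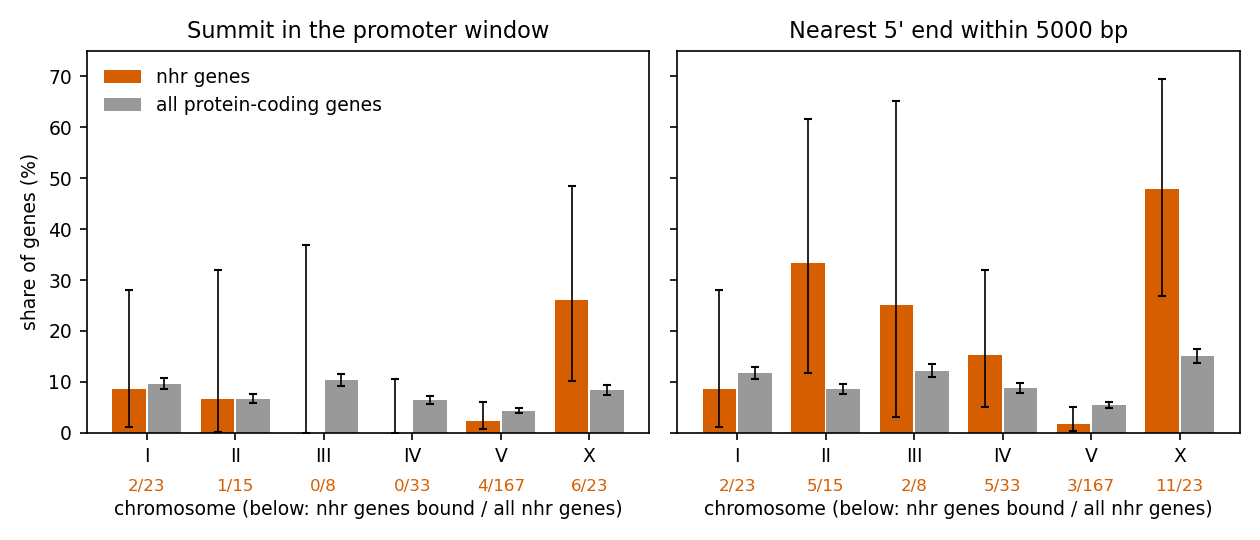
Share of nhr genes (orange) and of all protein-coding genes (grey) with a thresholded summit in the promoter window (left) and as the nearest 5′ end within 5000 bp (right), by chromosome, with 95% exact binomial intervals and the numbers of nhr genes below. The nhr bar is below the grey bar on V in both panels and above it on X, where it is 26.1% and 47.8%.

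The 28 genes were nearest to 34 summits, of which 22 at 18 genes were outside the promoter window. None of those 22 was on V and 9 were on X. Of all 2575 thresholded summits, promoter windows included, 356 were on V and 570 on X. In all, 9 of the 22 lay in an intron of the gene itself, 13 were intergenic and 0 were in coding exons. Of all 34 nearest summits, promoter windows included, 9 were intronic and 23 intergenic, beside 26.6% and 68.6% of all thresholded summits. The strongest of the 22 was in an intron of nhr-3, 1898 bp downstream of its 5′ end, with a signal of 424 in the pooled list, 213 in replicate 1 and 213 in replicate 2. It was stronger than the peak in the promoter window of the gene. A further one lay 3329 bp downstream of the nhr-3 5′ end, past the end of the gene, with a pooled signal of 229, which made nhr-3 the member nearest to most summits, 3.

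Several genes of this group are known regulators. The summit of nhr-10, which acts with nhr-68 in a transcriptional response to propionate, was 1406 bp upstream (159 in the pooled list, 69.4 in replicate 1 and 91.3 in replicate 2). That of nhr-66, a partner of NHR-49, was in an intron 3976 bp downstream (158, 92.7 and 59.9). The summit of nhr-41, related to the vertebrate TR2 and TR4 receptors, was in an intron 2094 bp downstream (155, 80.8 and 71.8) and 22 bp from a tRNA gene. That of nhr-40, which is needed for embryonic and early larval development, was 2189 bp upstream (235.5, 145 and 93.6), and 2225 bp from T03G6.7, so this summit too can be given to either gene.

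Other members with a distal summit had pooled signals of 114.9 to 397. The strongest of these was at nhr-20 (397, with 201 in replicate 1 and 197 in replicate 2), 4668 bp upstream and 4688 bp from F43C1.7, and in replicate 2 the summit lay nearer to F43C1.7, so either gene can be named. Intronic summits were at nhr-19 (289), at nhr-46 with 2 (234 and 162), at nhr-1 (133), at nhr-34 (126) and at nhr-173 (122). Upstream summits were at nhr-17 with 2 (219 and 120), nhr-71 (171), nhr-45 (164), nhr-88 (136), nhr-61 (131), nhr-21 (128), nhr-34 (120) and nhr-105 (114.9).

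The replicates were least alike at 2 of these peaks. The peak of nhr-21 had a signal of 102 and rank 936 in replicate 1, and a signal of 25.3 and rank 10031 in replicate 2. The peak of nhr-173 overlapped no peak of replicate 1 and had a signal of 82.9 and rank 1455 in replicate 2.

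**Figure D3:**
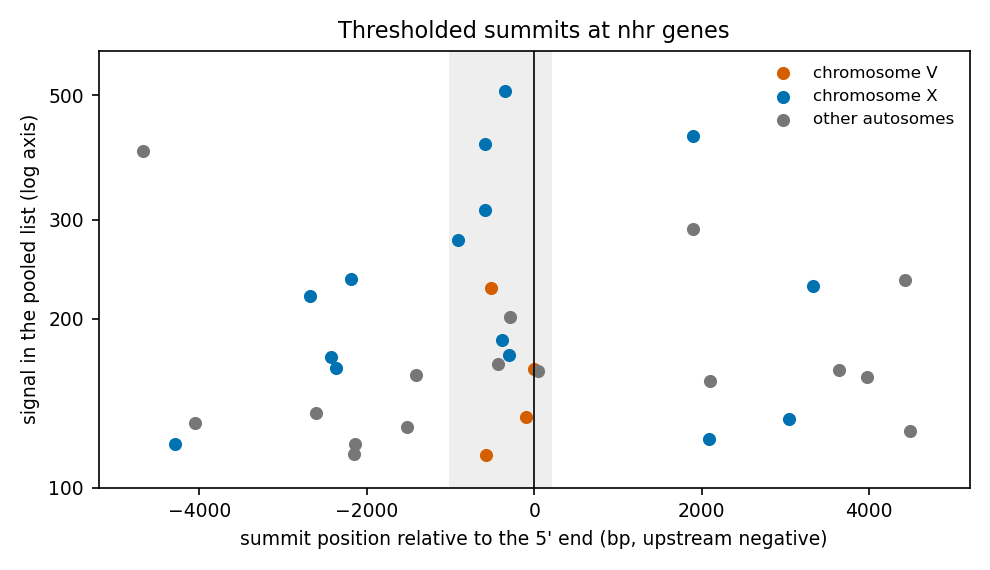
Position of 35 thresholded summits relative to the 5′ end of the nhr gene they lie at (x axis, bp, upstream negative) against their signal in the pooled list (y axis, log scale), for summits in the promoter window (grey band) or nearest to the gene within 5000 bp. The 4 summits on V all lie in the band, while 9 of the summits on X and 13 of those on the other autosomes lie outside it.

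The genes differ in how much sequence stands around them. The median distance to the next protein-coding gene upstream was 1590 bp for nhr genes, against 936 bp for all protein-coding genes. It was 1032 bp for nhr genes on V, against 3423 bp for those on the other chromosomes, whereas for all genes it was 944 bp on V and 928 bp elsewhere. It was 5033 bp for the 23 on X. The 28 genes named by the nearest rule had a median of 5869 bp, against 1336 bp for the 241 that were not. That rule favours genes with long free flanks, so the difference is in part built in. It was not computed for all protein-coding genes. For 79 of the 167 nhr genes on V, or 47.3%, the next gene upstream was itself an nhr gene, against 23 of 102, or 22.5%, on the other chromosomes and 1.39% of all protein-coding genes. Of the 13 bound genes this was true of 1, nhr-237.

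To allow for length, though not for how it splits into gene body and upstream sequence, summits were counted per Mb. The sequence counted was the gene body and the upstream sequence as far as the next gene. Over this sequence all nhr genes together had 46 thresholded summits in 1.76 Mb, or 26.1 per Mb (95% exact Poisson interval 19.1 to 34.9), against 26.1 per Mb for all protein-coding genes. The nhr genes on V had 4 in 0.679 Mb, or 5.89 per Mb (1.61 to 15.1), against 17.5 for all genes on V. Those on X had 21 in 0.364 Mb, or 57.8 per Mb (35.7 to 88.3), against 32.3 for all genes on X, and those on the remaining autosomes had 21 in 0.717 Mb, or 29.3 per Mb (18.1 to 44.8), against 27.2. Per length, the interval for V lies below the value for all genes on V, that for X lies above the value for all genes on X, and that for the remaining autosomes includes it. These intervals also cover counting error alone, and summits can be clustered.

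**Figure D4:**
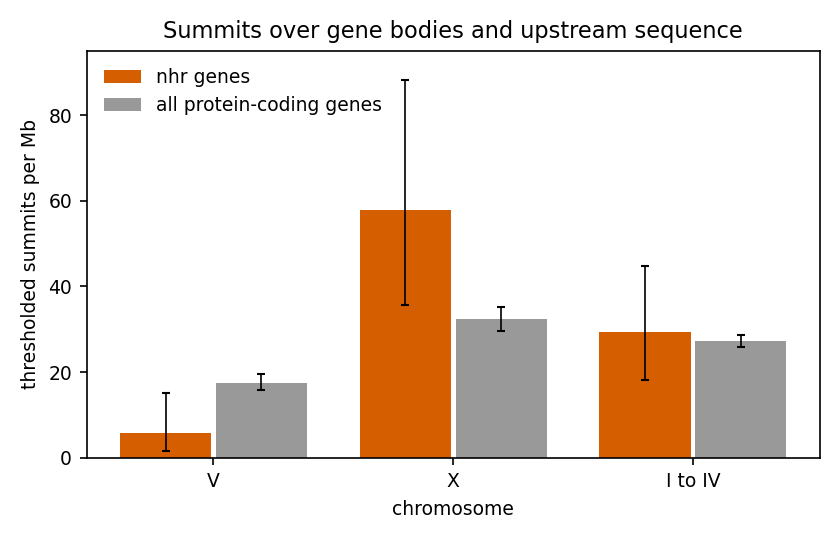
Thresholded summits per Mb of gene body plus upstream sequence for nhr genes (orange) and all protein-coding genes (grey) on V, on X and on autosomes I to IV, with 95% exact Poisson intervals. The nhr genes have 5.89 per Mb on V, 57.8 on X and 29.3 on I to IV, beside 17.5, 32.3 and 27.2 for all genes.

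Of the 21 summits on X, 5 were at nhr-1, in 41.4 kb of sequence, and the strongest of them was 8104 bp from its 5′ end, with a pooled signal of 532. Without nhr-1 the density on X was 49.6 (28.4 to 80.6) per Mb. The genes nhr-40 and nhr-17 had 3 each, the strongest with pooled signals of 394 and 289. This count also reached nhr-274, where a peak of 539 lay 13940 bp upstream of the 5′ end. The divergent neighbour rps-28, a gene for a ribosomal protein of the small subunit, begins 14392 bp upstream of nhr-274. The peak is thus far nearer to rps-28, though it is counted for nhr-274 here. In all, 33 of the 269 nhr genes had at least 1 thresholded summit over this sequence, or 12.3% (8.60 to 16.8%), against 12.9% of all protein-coding genes. On V it was 4 of 167, or 2.4% (0.656 to 6.02%), against 7.41% of all genes on V, and on X 12 of 23, or 52.2% (30.6 to 73.2%), against 19.6% of all genes on X. The sequence counted differs in length, with a median of 3.54 kb for nhr genes on V, against 3.14 kb for all genes on V, and of 11.0 kb for nhr genes on X, against 5.37 kb for all genes on X. More than 1 summit was found at 8 nhr genes, or 2.97%, against 2.74% of all protein-coding genes. Of these 4 were on X (nhr-1, nhr-40, nhr-17 and nhr-3), against 5.2% of all genes there, and 4 on IV (nhr-46, nhr-66, nhr-41 and nhr-34), against 2.22%, while none was on V, against 1.52%. Except for nhr-3 with 5.24 kb, the counted sequence of these 8 genes was 14.995 to 43.9 kb long.

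On V the 4 bound genes all lay in the left one of 3 equal stretches of the chromosome. There 4 of 78 nhr genes were bound, or 5.13%, against 3.22% of all genes of the stretch, so the share was not lower in this stretch. In the middle stretch none of 41 was bound, against 6.51% of all genes, and in the right one none of 48, against 3.11%. The pooled list gave a similar order, with a summit in the promoter window of 29 of 78 nhr genes in the left stretch (37.2%, against 25.4% of all genes), 10 of 41 in the middle (24.4%, against 26.3%) and 7 of 48 on the right (14.6%, against 21.7%). The summits of nhr-237 and nhr-256 were 116 kb apart with no other thresholded summit between them, and on X the summits of nhr-48 and nhr-255 were 34.4 kb apart with none between.

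The pooled list, which includes background, separated V from the other chromosomes less. It had a summit in the promoter window of 79 nhr genes, or 29.4% (24.0 to 35.2%), against 35.1% of all protein-coding genes. On V this was 46 of 167, or 27.5% (20.9 to 35.0%), against 24.5% of all genes on V. On the other chromosomes it was 33 of 102, or 32.4% (23.4 to 42.3%), against 38.7%, and on X 9 of 23, or 39.1% (19.7 to 61.5%), against 38.1%. With a −log10 q of at least 2, 28 nhr genes were left, or 10.4%, against 12.5% of all genes. At that limit 13 of 167 nhr genes on V had a summit, or 7.78% (4.21 to 12.9%), against 7.93% of all genes on V, which is nearly the same share. On X it was 6 of 23, or 26.1% (10.2 to 48.4%), against 14.6% of all genes on X.

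The 66 nhr genes with a summit in the pooled list alone had signals of 23.4 to 95.7 with a median of 49.3, against 43.8 for the 5582 protein-coding genes of that kind. On V were 42 of the 66, beside 167 of all 269 nhr genes. In 42 of the 66 both replicate lists had a summit in the window. This was not counted for the 5582 genes, so whether it is usual is not known. The leading ones were nhr-88 (95.7, with 59.2 in replicate 1 and no summit in replicate 2), nhr-190 (95.1, with 62.3 and 25.2) and nhr-135 (94.8, with 53.0 and 41.6). They were followed by nhr-104 (88.9), nhr-95 (85.7), nhr-228 (85.4), nhr-87 (85.4), nhr-131 (83.2), nhr-97 (82.3) and nhr-59 (81.2). None of these 10 was on X, where 6 of the 9 genes with a summit were above the threshold. For 170 of the 269 genes, or 63.2%, no list had a summit in the promoter window, against 55.9% of all protein-coding genes. On V this was 110 of 167, or 65.9%, against 67.2% of all genes on V, and on the other chromosomes 60 of 102, or 58.8%, against 52.2%.

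**Figure D5:**
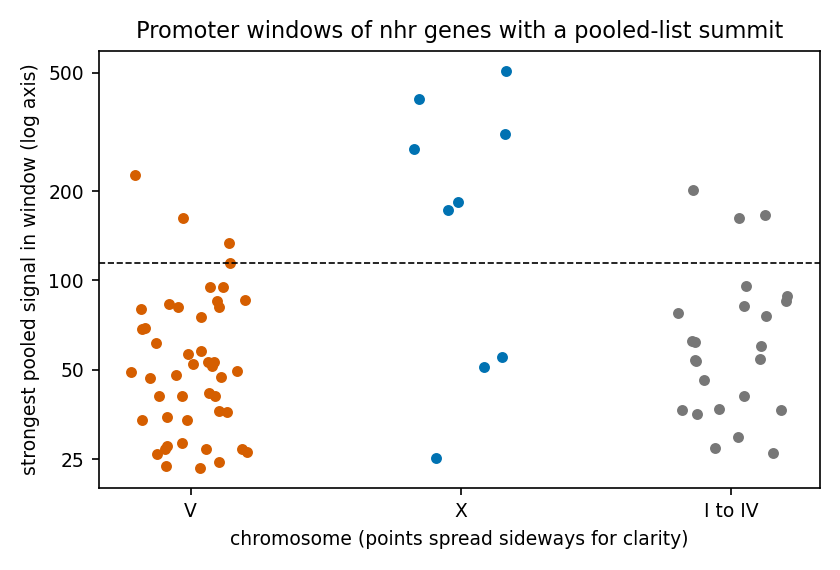
Strongest pooled-list signal in the promoter window of each of the 79 nhr genes with a summit there (y axis, log scale), on V, X and autosomes I to IV, with a dashed line at the lowest signal of a thresholded peak, 114.2. On V 4 of 46 points are on or above the line, on X 6 of 9 and on the other autosomes 3 of 24.

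Receptors with counterparts outside nematodes were followed as a list of 11 genes. Of these nhr-48 alone was bound, beside 7.2% of all protein-coding genes, and nhr-41 was in addition nearest to a distal summit. The pooled list had a summit in the promoter window of 7 of the 11, beside 35.1% of all protein-coding genes, and 6 of the 7 were below the threshold with signals of 25.3 to 62.3. Among these were nhr-25, the FTZ-F1 and SF-1 counterpart needed for epidermal development and moulting (55.2 in the pooled list, 33.3 in replicate 1 and 22.1 in replicate 2), and nhr-23, the ROR and DHR3 counterpart that acts in moulting (40.7, 18.7 and 21.8). The tailless counterpart nhr-67 and nhr-8, a relative of DAF-12, had no summit in the window in any list.

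On a list of 11 regulators of metabolism nhr-49 alone was bound, again beside 7.2% of all genes. The list does not hold every such gene, and the bound gene nhr-64, named above for its role in fat metabolism, was not on it. Of the listed genes, nhr-10 and nhr-66 were nearest to the distal summits given above. The pooled list had a summit in 8 of the 11, beside 35.1% of all genes. These lists are short, and nothing particular to them is read from the counts. Those of nhr-86 (81.1 in the pooled list, 58.2 in replicate 1 and 21.9 in replicate 2), a sensor of bacterial metabolites in the intestine, and of nhr-68 (75.1, 27.5 and 41.3), the partner of nhr-10, had a −log10 q above 2. The receptor genes nhr-80, which acts in fatty acid desaturation, nhr-31 and nhr-14 had none in the pooled list. Of 9 annotated genes on a list of receptors of seam and epidermal cells none was bound, beside 7.2% of all genes. Of these 9, nhr-71 was nearest to a summit 2428 bp upstream with a signal of 171.

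Receptor genes with other names, genes for receptor partners and genes of steroid ligand synthesis or metabolism were examined for comparison. None of the receptor genes daf-12, fax-1, odr-7, sex-1 and unc-55 was bound, beside 7.2% of all protein-coding genes. The steroid receptor gene daf-12 on X, which controls dauer formation, was however nearest to 2 summits, the stronger with a signal of 364 at 1751 bp downstream of its 5′ end. Of 4 genes for receptor partners 2 were bound, beside 7.2% of all protein-coding genes: cbp-1, for the histone acetyltransferase related to CBP and p300 (394 in the pooled list, 189 in replicate 1 and 207 in replicate 2, 879 bp upstream), and din-1, for the corepressor of DAF-12 (324, 172 and 161, 710 bp upstream). The mediator subunit gene mdt-15, a coactivator of NHR-49, had a pooled-list signal of 30.8, and gei-8 had no summit in its window. None of the 5 genes of dafachronic acid synthesis or metabolism, daf-9, daf-36, dhs-16, hsd-1 and strm-1, was bound or nearest to a thresholded summit, beside 7.2% and 9.64% of all protein-coding genes.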

How the data were processed

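The deposited files are narrowPeak lists on the ce10 and ce11 builds, made by the authors from alignments of immunoprecipitated and control reads, per the notes deposited with them: 1 list per replicate, 1 for the pooled replicates, and 1 thresholded by IDR. The aligner, the peak caller, their versions and the placement of reads that match several near-identical genes are not stated in those sources. The signal and the −log10 q of each peak are values deposited by the authors and were used only to describe and rank peaks within a list. All 2575 thresholded peaks were the pooled peaks with a signal of at least 114.217.

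Summits on ce11, which is the WBcel235 assembly, were assigned to 5′ ends of Ensembl release 115 genes, leaving out 12 mitochondrial ones. Peaks were ranked by signal, since 1912 thresholded peaks shared the highest −log10 q, and a replicate's value is that of its overlapping peak. For genes below the threshold it is the strongest summit in the window. Words were searched on both strands within 75 bp. With 1 group there is no contrast, so shares are set beside those of all protein-coding genes, with exact binomial or Poisson intervals at 95% and no test over genes. Named genes are the bound members, the members nearest to a summit, the 10 with the strongest pooled-list summit below the threshold, and the 6 lists. The members and lists were chosen with earlier results of these data known. The assignment was checked on simulated summits. Computation used scipy 1.17.1 and pandas 2.3.3 under Python 3.11.15, with numpy 2.4.6, and drawing used matplotlib 3.10.9.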

Additional observations from a re-analysis of the deposited data

How the results depend on the processing

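The number of bound nhr genes depended most on the window and on the weakest peaks. With the promoter window shortened to 500 bp before and 100 bp after the 5′ end, 8 were bound, 2 of them on V and 3 on X in place of 6, and nhr-3, nhr-48, nhr-142, nhr-237 and nhr-255 were lost. With the 1287 thresholded peaks of highest signal, 8 were bound, 1 of them on V, and nhr-47, nhr-64, nhr-119, nhr-237 and nhr-256 were lost, while all 6 on X were kept. The nearest rule named 15 genes within 2000 bp and 12 with the 1287 strongest peaks, in place of 28. The share of all protein-coding genes was not computed for either setting, so whether the fall is particular to nhr genes is not known. The pooled list gave 28 genes in place of 79 with a −log10 q of at least 2. No share of all protein-coding genes was computed for the other settings tried. They gave 12 to 16 bound genes, of which 4 to 6 were on V. Among them, the strongest peaks of replicate 1 alone gave 14, without nhr-237 and with nhr-88 and nhr-190, and those of replicate 2 alone gave the same 13. Lowering the pooled signal to 92.7, the lowest of the 3485 thresholded ce10 peaks, was chosen after seeing the data and gave 16, adding nhr-88, nhr-135 and nhr-190. GAGAGA lay within 50 bp of 7 of the 13 summits, or 53.8%, against 33.7% of all thresholded summits, and within 150 bp of 10, or 76.9%, against 60.1%. Comparing protein features was planned and not run. No paired analysis was possible because there is 1 group. The unknown depth limits what the absence of a peak can show.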
